A study of Mus musculus with 6 samples.

Results

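The 10 receptor chains through which hematopoietic stem cells (HSC) and their progeny sense myeloid and shared cytokines were followed across 6 mouse arrays. They were taken by name, as the genes Csf2ra, Csf2rb, Csf2rb2, Csf3r, Il3ra, Il5ra, Il2rb, Il2rg, Il6st and Ifngr1, with every probe set that carries one of these symbols alone. Of these 10 genes 9 had a probe set, 1 each, among the 28815 probe sets of the array, and Il2rg was not analysed here. The arrays came from HSC of Selp-/- mice (3 arrays), which lack P-selectin, an adhesion receptor of platelets and endothelium, and of WT mice (3 arrays), and the labels give the strain C57BL/6 for each genotype. The arrays are numbered 1 to 3 within each genotype. The sources used here do not give the kind of Selp allele, the age and sex of the mice, the sort or any pooling. Whether the 3 arrays of a genotype hold RNA of different mice is not stated, so the p-values reflect array-to-array spread that may be only technical. The design compares gene expression between Selp-/- and WT HSC.

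Most of these chains belong to the type I cytokine receptor family. Their ligands bring receptor chains together on the cell surface, JAK kinases bound to the chains then phosphorylate each other and the receptor, and STAT transcription factors carry the signal to the nucleus. Ligand specificity usually lies in an alpha chain, whereas a shared beta or gamma chain carries the signal for several cytokines. In mice the common beta chain, Csf2rb, serves IL-3, IL-5 and GM-CSF, and a close copy, Csf2rb2, serves IL-3 alone. In bone marrow the GM-CSF, IL-3, IL-5 and G-CSF receptors are best known for the growth and maturation of granulocytes, macrophages, mast cells, basophils and eosinophils.

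Levels are log2 probe set intensities after background correction and quantile normalization, and are compared only within a probe set. The median deposited intensity ran from 638 to 713 on the Selp-/- arrays and from 563 to 751 on the WT arrays. No probe set carries the name Selp, so the genotype labels were not checked by the level of the deleted gene. The arrays numbered 3 of the 2 genotypes stood apart from the other 4 in most markers of the labelled cell type. Hlf, a transcription factor of HSC, measured 8.81 in Selp-/- 3 and 8.88 in WT 3, against 12.13 to 12.53 in the other 4 arrays. Of the HSC marker list, 7 of 8 genes were measured, and 0 of their 8 probe sets was highest in the array numbered 3 of either genotype. Slamf1 of that list did not set the arrays numbered 3 apart. It measured 8.94 in Selp-/- 3 and 9.29 in WT 3, against 9.09 to 10.38 in the other 4 arrays. The levels of the receptor chains are therefore given below by array number as well as by genotype. Those of other genes are mostly given as the arrays numbered 3 against the other 4.

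Among the receptor chains, the 2 beta chains of the IL-3 receptor family differed most between arrays. Csf2rb measured 10.70, 10.62 and 13.27 in Selp-/- 1, 2 and 3, against 10.24, 10.79 and 13.55 in WT 1, 2 and 3. The arrays numbered 3 of each genotype were high and the range of the other 4 was 0.55, and the genotypes overlapped. Csf2rb2 measured 9.76, 9.69 and 12.78 in Selp-/- 1, 2 and 3, against 9.41, 9.92 and 13.45 in WT 1, 2 and 3. Again the arrays numbered 3 were high in each genotype. In the deposited intensities, before any processing here, Csf2rb stood at 10537.5 in Selp-/- 3 and 13361 in WT 3, against 1287 to 2079.5 in the other 4 arrays. Csf2rb2 stood at 7838 in Selp-/- 3 and 12620.5 in WT 3, against 770 to 1101 in the other 4.

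The mean of the arrays numbered 3 was 7.06 times that of the other 4 arrays for Csf2rb and 10.7 times for Csf2rb2, as ratios of geometric means. A model with a term for the array number beside the genotype gave an adjusted p of 0.000691 for Csf2rb and 0.00068 for Csf2rb2 (limma F test, Benjamini-Hochberg over 17289 tested probe sets). Array number 3 minus 1 was 2.94 (SE 0.19) for Csf2rb and 3.52 (SE 0.23) for Csf2rb2 on the log2 scale, and 3 minus 2 was 2.70 and 3.31 with the same SE. Array number 2 minus 1 was 0.24 (adjusted p = 0.78 in limma) for Csf2rb and 0.22 (adjusted p = 0.836) for Csf2rb2. The 2 genes are close copies, whose sequences were not compared here. In RefSeq (GRCm38.p6) they are neighbours on chromosome 15 with 0 protein-coding genes between them. Their probes could share targets, so how the signal splits between them is uncertain.

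**Figure D1:**
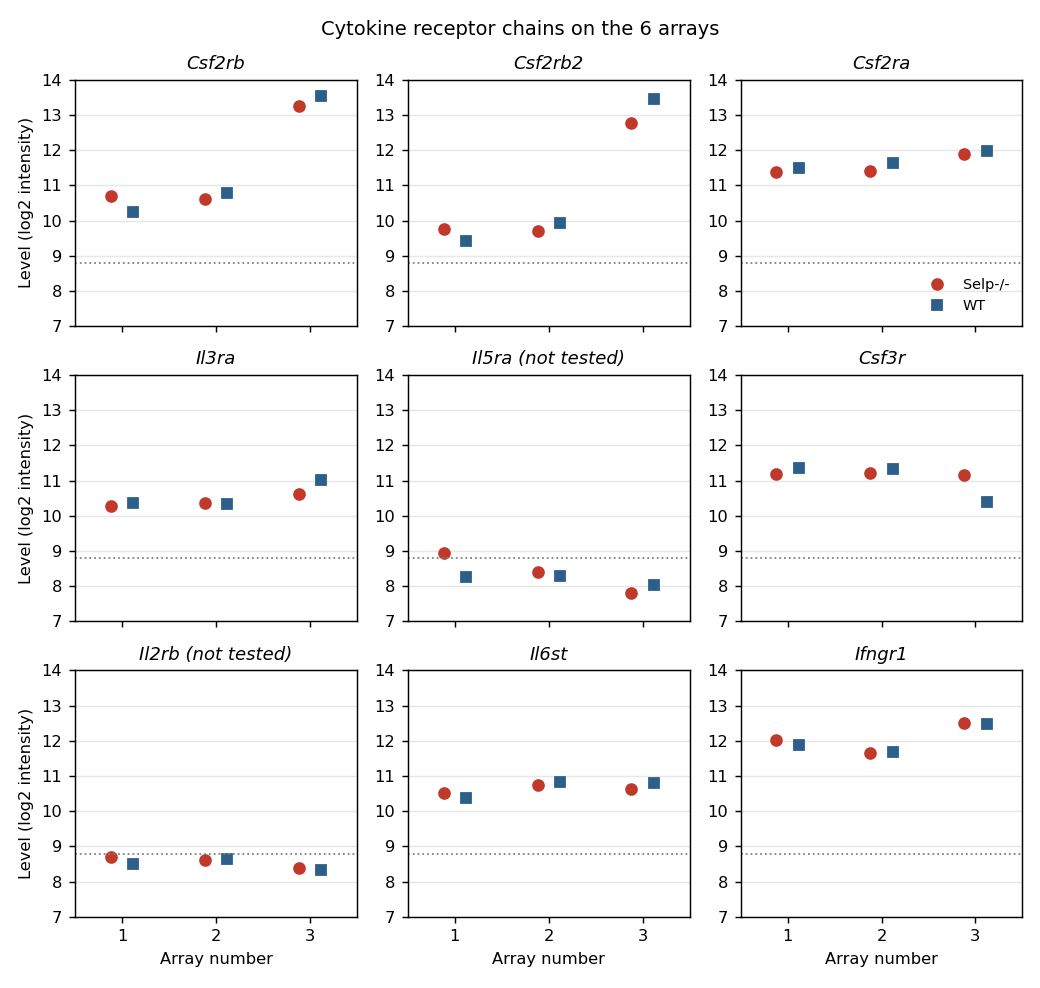
Level of each of the 9 measured receptor chains (log2 intensity) by array number, with Selp-/- arrays as circles and WT arrays as squares. The dotted line is the mean level of 8.79 under which probe sets were not tested. Csf2rb and Csf2rb2 lie high in the arrays numbered 3 of each genotype.

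The alpha chains that pair with these beta chains moved far less. Csf2ra, the ligand-binding chain of the GM-CSF receptor, measured 11.38, 11.41 and 11.88 in Selp-/- 1, 2 and 3, against 11.49, 11.63 and 11.98 in WT 1, 2 and 3. Il3ra, the alpha chain of the IL-3 receptor, measured 10.28, 10.35 and 10.63 in Selp-/- 1, 2 and 3, against 10.36, 10.35 and 11.02 in WT 1, 2 and 3. In each of these probe sets the arrays numbered 3 lay above the other 4, by 0.45 for Csf2ra and 0.49 for Il3ra in the mean. The Il3ra difference was 0.31 without WT 3 and 0.66 without Selp-/- 3. The array number term did not pass for either, with an adjusted p of 0.0617 and 0.0923 (limma). Without normalization between arrays each passed, with a limma adjusted p of 0.00055 for Csf2ra and 0.0012 for Il3ra, while the median of all probe sets then lay 0.21 higher in the arrays numbered 3.

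Il5ra, the alpha chain of the IL-5 receptor of eosinophils and their precursors, measured 8.96, 8.40 and 7.80 in Selp-/- 1, 2 and 3, against 8.26, 8.30 and 8.03 in WT 1, 2 and 3. In these normalized levels it was lowest in the array numbered 3 of each genotype, the opposite order to the beta chains. In the deposited intensities it stood at 644, 443 and 359 in Selp-/- 1, 2 and 3. The WT arrays 1, 2 and 3 stood at 403, 375 and 425, so there WT 3 was not the lowest. Its mean of 8.29 was below the level needed for testing. With no level filter its array number term had an adjusted p of 0.231 in limma.

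Promoter sequence was at hand for 8 of the 10 genes, Csf2rb and Il2rb not among them, from RefSeq on GRCm38.p6. Shown are the 250 bases before the listed start of Csf2rb2 and Ifngr1, which passed the array number term, and of Il5ra. Il5ra is the alpha chain whose order over the arrays was the opposite after normalization, though not in the deposited WT intensities. Capitals mark matches, on either strand, to GAGGAA (the PU.1 type of ETS motif), TTCNNNGAA (the GAS motif of STAT proteins) and AGATAA (the GATA motif). The windows are chr15:78305722-78305971, minus strand, for Csf2rb2, chr6:106749038-106749287, minus strand, for Il5ra, and chr10:19591699-19591948, plus strand, for Ifngr1.
Csf2rb2: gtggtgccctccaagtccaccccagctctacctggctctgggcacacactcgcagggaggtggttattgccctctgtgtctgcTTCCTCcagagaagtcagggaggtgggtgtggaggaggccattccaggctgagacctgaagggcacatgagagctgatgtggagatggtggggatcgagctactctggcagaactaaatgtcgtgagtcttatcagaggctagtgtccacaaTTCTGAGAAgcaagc
Il5ra: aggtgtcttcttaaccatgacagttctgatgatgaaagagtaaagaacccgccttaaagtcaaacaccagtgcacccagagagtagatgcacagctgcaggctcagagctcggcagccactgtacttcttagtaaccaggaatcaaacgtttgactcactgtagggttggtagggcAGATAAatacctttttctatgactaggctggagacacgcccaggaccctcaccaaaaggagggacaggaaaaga
Ifngr1: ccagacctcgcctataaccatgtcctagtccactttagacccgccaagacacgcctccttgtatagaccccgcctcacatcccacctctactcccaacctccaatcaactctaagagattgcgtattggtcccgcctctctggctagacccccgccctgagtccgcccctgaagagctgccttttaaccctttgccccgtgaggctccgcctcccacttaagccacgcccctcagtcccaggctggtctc

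Csf2rb2 held GAGGAA once, as its reverse complement from position -167, and TTCNNNGAA once, from -15, with positions counted backwards from the start. Il5ra held AGATAA once, from -74. The Ifngr1 window held none of these letters. The C/EBP motif TTGCNNAA and the RUNX motif TGTGGT were also searched and had 0 matches in the 3 windows. No match in these windows overlapped another. In the other windows at hand GAGGAA had 2 matches in that of Csf2ra and 1 in that of Csf3r, chains that did not pass the array number term. TTGCNNAA stood once in that of Il3ra and TGTGGT once in that of Il2rg, and the Il6st window held none of the 5 motifs. Of 32851 promoter windows of the same length, 23.3% held GAGGAA, 7.02% TTCNNNGAA, 9.56% TTGCNNAA, 9.99% AGATAA and 14% TGTGGT. A match describes the letters of the window and not a bound site.

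Csf3r, the G-CSF receptor that drives neutrophil formation, measured 11.20, 11.23 and 11.17 in Selp-/- 1, 2 and 3, against 11.36, 11.34 and 10.40 in WT 1, 2 and 3. WT 3 alone was low, and the other 5 arrays lay close together. The array number term did not pass (limma, adjusted p = 0.263). Without Selp-/- 3, which leaves WT 3 as the lone array of its number and assumes that it varies like the others, it passed, with an adjusted p of 0.0352 and a difference of -0.95. Without WT 3 the difference was -0.048, with an adjusted p of 0.986.

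Of the chains shared beyond the myeloid family, Ifngr1 passed the array number term. Ifngr1, the ligand-binding chain of the interferon gamma receptor, measured 12.02, 11.64 and 12.49 in Selp-/- 1, 2 and 3, against 11.87, 11.68 and 12.49 in WT 1, 2 and 3. The arrays numbered 3 of the 2 genotypes were high and nearly equal, and those numbered 2 were lowest. The limma adjusted p was 0.012, and array number 3 minus 2 was 0.83 (SE 0.12). The call was lost without Selp-/- 3 (adjusted p = 0.0557) and without WT 3 (adjusted p = 0.0887), while the difference between array number 3 and the mean of 1 and 2 stayed between 0.65 and 0.73 when any 1 array was left out.

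Il6st, or gp130, is the signalling chain shared by IL-6, IL-11, LIF and oncostatin M. It measured 10.52, 10.74 and 10.62 in Selp-/- 1, 2 and 3, against 10.37, 10.83 and 10.79 in WT 1, 2 and 3. No array stood apart, the whole range over 6 arrays was 0.46, and the array number term had a limma adjusted p of 0.24. Il2rb, the beta chain shared by IL-2 and IL-15, lies on the same chromosome as the IL-3 receptor beta chains, with 5 protein-coding genes between it and Csf2rb. It measured 8.70, 8.61 and 8.37 in Selp-/- 1, 2 and 3, against 8.51, 8.63 and 8.34 in WT 1, 2 and 3. With a range of 0.36 its normalized values lay within a narrow band below the level needed for testing, the lowest in the arrays numbered 3. In the deposited intensities WT 3, at 500, was above WT 1 and WT 2, at 459 and 442. With no level filter its array number term had a limma adjusted p of 0.407.

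**Figure D2:**
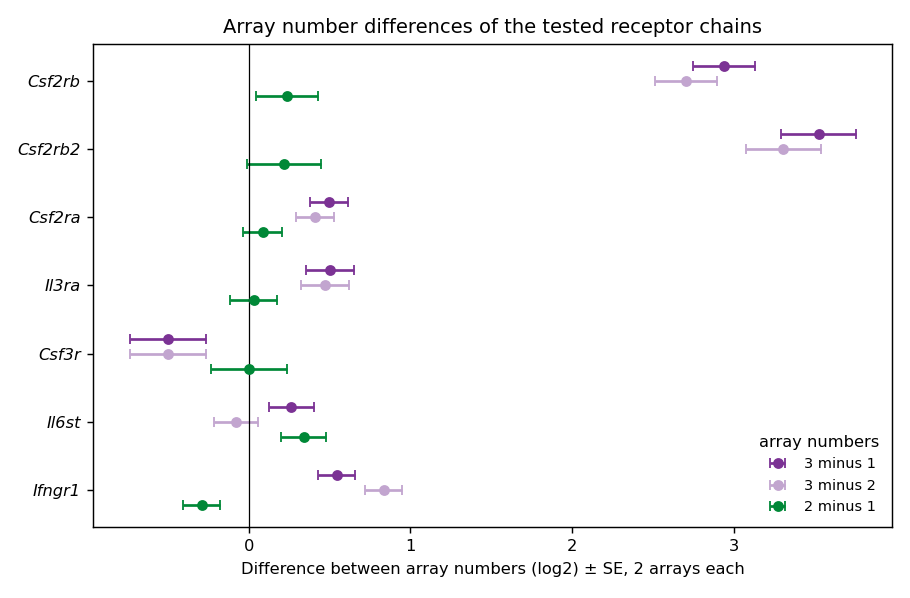
Differences between array numbers (log2, point and SE from limma, 2 arrays per number, genotype in the model) for the 7 tested receptor chains. Csf2rb and Csf2rb2 lie near 3 for array number 3 against 1 and against 2, and the differences of 2 minus 1 lie between -0.29 and 0.34.

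Over the 7 tested chains, 3 passed the array number term, with 3 above and 0 below the other numbers in the arrays numbered 3. They were Ifngr1, Csf2rb and Csf2rb2, and the last 2, whose probes could share targets, may not be separate signals. Over all tested probe sets 12.8% passed, or 2217, of which 1056 were above and 1161 below, so that 6.11% were called upward and 6.72% downward. Without normalization 5901 passed, 4878 of them above and 1023 below. All 7 chains also had mean levels past the filter in the 4 arrays numbered 1 and 2 alone. In 5 of the 7 the arrays numbered 3 lay above all 4 others and in 1 below, against 20.1% and 25.1% of all tested probe sets. The median of array number 3 minus the mean of 1 and 2 was 0.49 over the 7 and -0.013 over all tested probe sets. The number of calls over all probe sets was 1431 without Selp-/- 3 and 1007 without WT 3.

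Markers of several other cell types were, like Csf2rb and Csf2rb2, higher in the arrays numbered 3, and those of some were lower. Of the 8 probe sets of basophil and mast cell markers, 8 were highest in Selp-/- 3 among the Selp-/- arrays and 8 in WT 3 among the WT arrays. Their summed linear level was 42300 in Selp-/- 3 and 55600 in WT 3, against 4190 to 5250 in the other 4 arrays. Mcpt8, a basophil protease, measured 13.95 in Selp-/- 3 and 14.17 in WT 3, against 9.38 to 9.65 in the other 4. For 9 neutrophil probe sets the counts were 9 and 8, with sums of 58800 in Selp-/- 3 and 63500 in WT 3. Their sums were 39300 in Selp-/- 1 and 34800 in WT 1, against 15500 in Selp-/- 2 and 16400 in WT 2. Unlike the beta chains, this list thus also differed between the numbers 1 and 2. For 6 monocyte and macrophage probe sets the counts were 5 and 6, with sums of 23500 in Selp-/- 3 and 14400 in WT 3, against 5830 to 6510. For 4 eosinophil probe sets they were 3 and 2, with sums of 3700 and 4100, against 2010 to 2160. For 8 T and NK cell probe sets they were 3 and 4, with sums of 14400 in Selp-/- 3 and 13600 in WT 3, against 6870 to 7880. The members of this list did not move together. Array number 3 minus the mean of 1 and 2 (log2) was 4.06 for Gzmb, 0.54 for Nkg7, 0.22 for Cd3d and 0.028 for Prf1. It was -0.044 for Cd3e, -0.040 for Cd3g, -0.34 for Ncr1 and -0.91 for Klrb1c. The erythroid list went the other way in its sums, with 0 of 4 probe sets highest in either array numbered 3. Its sums were 1840 in Selp-/- 3 and 2120 in WT 3, against 5430 in Selp-/- 2 and 5730 in WT 2. They were higher still in Selp-/- 1, at 18400, and WT 1, at 19000. The members of the erythroid list moved unequally. Array number 3 minus the mean of 1 and 2 (log2) was -3.88 for Car1, -0.62 for Klf1, -0.32 for Epor and -0.45 for Alas2. Klf1 and Epor were higher in WT 3, at 8.92 and 9.56, than in WT 2, at 8.49 and 9.34. In Selp-/- 3 each was lower than in Selp-/- 2. For 5 B cell probe sets the counts were 1 and 1, and the sums of 2970 in Selp-/- 3 and 4590 in WT 3 overlapped the 4040 to 6030 of the other 4. The HSC list summed to 5580 in Selp-/- 3 and 5390 in WT 3, against 17400 to 24100. The part of these cell types in the levels of the receptor chains was not tested, and in bulk RNA fewer cells of a type and less RNA per cell cannot be told apart.

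The genes whose profile over the 6 arrays was most like that of the 2 beta chains were found by the root mean square difference of mean-centred log2 levels. For Csf2rb they were Lipg, endothelial lipase (0.14), Fcgr2b, an inhibitory receptor for IgG (0.20), and Mmp13, a collagenase (0.21). For Csf2rb2 they were Anpep, the aminopeptidase CD13 of myeloid cells (0.20), Adgre1, a macrophage surface antigen (0.21), and Lipg (0.21). Lipg, Mmp13 and Adgre1 lay below the level filter in all 4 arrays numbered 1 and 2 and were candidates only through their high arrays numbered 3. The distance between Csf2rb and Csf2rb2 themselves was 0.30 by this measure. Anpep measured 12.54 in Selp-/- 3 and 13.23 in WT 3, against 9.13 to 9.64 in the other 4 arrays.

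Between the genotypes no receptor chain passed the test. The limma test called 0 of the 7 tested chains higher and 0 lower in Selp-/- HSC, with an adjusted p of 1 for each, and 0 of the 7 had an unadjusted p under 0.05. Over all tested probe sets 0% were called, and 0.706%, or 122, had an unadjusted p under 0.05. With the array number as a replicate block 0 of the 7 passed and 0 of the 7 had an unadjusted p under 0.05, against 0% and 3.64% of all tested probe sets. The median of Selp-/- minus WT was -0.035 over the 7 chains and 0.0054 over all tested probe sets. In 0 of the 7 tested chains did the 3 Selp-/- values lie wholly above or below the 3 WT values, against 4.21% of all tested probe sets. The genotypes also overlapped in Il5ra and Il2rb, which were not tested.

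Csf2rb averaged 11.53 ± 1.51 in Selp-/- and 11.53 ± 1.77 in WT HSC (log2, SD, n = 3 each), a difference of 0.0010 with a 95% interval of -2.44 to 2.45. Csf2rb2 averaged 10.74 ± 1.76 in Selp-/- and 10.93 ± 2.20 in WT HSC, a difference of -0.18 with an interval of -3.14 to 2.77. With the array number as a replicate block the intervals were -0.37 to 0.37 for Csf2rb and -0.63 to 0.27 for Csf2rb2. In that fit, which assumes that same-numbered arrays are pairs, a change of 2-fold, 1 on the log2 scale, lay outside each. The blocked intervals of the other tested chains lay between -0.43 and 0.62.

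**Figure D3:**
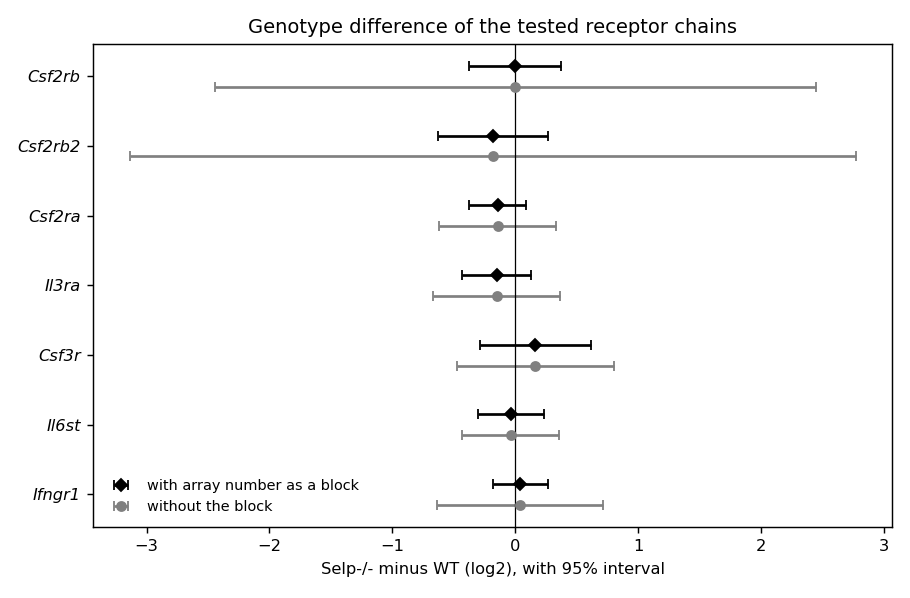
Selp-/- minus WT (log2) for the 7 tested receptor chains, with the 95% interval from limma, with array number as a block (diamonds) and without it (circles). Every interval includes 0, and the block narrows those of Csf2rb and Csf2rb2.

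Csf3r averaged 11.20 ± 0.030 in Selp-/- and 11.03 ± 0.55 in WT HSC (SD, n = 3 each), and Ifngr1 12.05 ± 0.43 in Selp-/- and 12.01 ± 0.43 in WT HSC. Csf2ra, Il3ra and Il6st had differences of -0.14 (SE 0.20), -0.15 (SE 0.22) and -0.035 (SE 0.17). Within single array numbers, where 1 array stands against 1, the Csf2rb2 difference was 0.35, -0.23 and -0.67 for numbers 1, 2 and 3, and the Csf3r difference -0.16, -0.12 and 0.77. The Il3ra difference was -0.075, 0.0067 and -0.39 in the same order. For Csf2rb2, Csf3r and Il3ra the largest of these differences in size was that between the arrays numbered 3. For Csf2rb, with 0.46, -0.17 and -0.28, it was that between the arrays numbered 1. Csf2ra differed by -0.11, -0.22 and -0.10, and was the only tested chain with the same sign in all 3 pairs. Il6st differed by 0.15, -0.089 and -0.17, and Ifngr1 by 0.15, -0.035 and 0.0033. These single-pair differences have no replicate and no test.

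The ligands of the receptors were mostly below the level needed for testing. Of 18 measured ligand genes 4 were tested. Csf2, Csf3, Il3, Il5, Il2 and Ifng, the ligands of the chains described here, were not among them, with levels between 7.19 and 8.79 on all arrays. Osm, the gp130 ligand oncostatin M, was higher in the arrays numbered 3, with 10.47 in Selp-/- 3 and 11.57 in WT 3, against 8.91 to 9.07 in the other 4 (array number term, limma adjusted p = 0.00508). Il15, a ligand of Il2rb, was lower, with 9.18 in Selp-/- 3 and 8.86 in WT 3, against 9.72 to 10.16 (adjusted p = 0.0219). Il15 lost its call without WT 2 (adjusted p = 0.0562) and without WT 3 (0.126). The ligands Il6 and Lif and the receptor chain Il2ra lay below the filter in their mean over 6 arrays, and are named after their values were seen. In each the arrays numbered 3 lay above the other 4. Lif measured 8.59 in Selp-/- 3, still under the filter level, and 9.90 in WT 3, against 8.10 to 8.32 in the other 4. Il2ra measured 8.96 in Selp-/- 3 and 10.04 in WT 3, against 7.42 to 7.75. Il6 measured 9.57 in Selp-/- 3 and 10.78 in WT 3, against 6.56 to 6.79 in the other 4.

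Of 9 tested partner chains, 2 passed the array number term, against 12.8% of all tested probe sets. Ifngr2, the second chain of the interferon gamma receptor, measured 12.06 in Selp-/- 3 and 12.27 in WT 3, against 10.54 to 11.05 in the other 4 arrays (limma adjusted p = 0.00318), the same direction as Ifngr1. Il7r, the alpha chain of the IL-7 receptor that pairs with Il2rg, measured 10.74 in Selp-/- 3 and 11.37 in WT 3, against 8.72 to 9.54 (adjusted p = 0.00555). Among 14 other cytokine receptors tested, 2 passed higher and 2 lower in the arrays numbered 3, against 6.11% and 6.72% of all tested probe sets. The tyrosine kinase receptors of early progenitors were the lower pair. Flt3 measured 9.36 in Selp-/- 3 and 9.57 in WT 3, against 11.75 to 12.14 (adjusted p = 0.000421), and Kit 11.11 in Selp-/- 3 and 10.58 in WT 3, against 12.18 to 12.52 (adjusted p = 0.00293). Csf1r, the M-CSF receptor of monocytes, was higher, with 11.20 in Selp-/- 3 and 10.36 in WT 3, against 9.28 to 9.60 (adjusted p = 0.0185). Il18r1, a chain of the IL-18 receptor, measured 9.28 in Selp-/- 3 and 9.92 in WT 3, against 8.55 to 8.74 (adjusted p = 0.0224). Il18r1, which passed the filter only through its high arrays, lost its call without WT 3 (adjusted p = 0.141) and with no filter (0.0512).

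Of the 9 tested JAK and STAT genes 2 passed the array number term, against 12.8% of all tested probe sets. Stat2, a mediator of interferon signals, was 0.87 higher in the arrays numbered 3 (limma adjusted p = 0.0113), and Stat5b, which acts below the beta chains, fell by 0.55 (adjusted p = 0.0373). Stat2 lost its call without Selp-/- 3 (adjusted p = 0.0751). Stat5b lost it when any of Selp-/- 2, Selp-/- 3, WT 1, WT 2 or WT 3 was left out (adjusted p from 0.053 to 0.211), with median centring (0.0661) and without normalization (0.315).

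Of 28 tested probe sets of feedback genes and STAT targets, 3 passed higher and 1 lower in the arrays numbered 3, a share near the 12.8% of all tested probe sets that passed the array number term. Id1, an inhibitor of differentiation factors, measured 10.04 in Selp-/- 3 and 10.11 in WT 3, against 8.85 to 8.96 in the other 4 arrays (limma adjusted p = 0.00211). Socs1, an inhibitor of JAK signalling, was 1.20 higher (adjusted p = 0.036). Of the 2 probe sets of Socs2, a feedback inhibitor of the same family, 1 was 1.59 higher (adjusted p = 0.00855) and the other did not pass. Myc, a driver of cell growth, fell by 0.64 on the log2 scale (adjusted p = 0.0133). The Socs1 difference was 0.69 without WT 3 and 1.72 without Selp-/- 3. Socs1 lost its call without WT 3 (adjusted p = 0.109) and with no filter (0.0714), and Myc without Selp-/- 3 (0.0966) and without WT 3 (0.068). In these 5 lists limma called 0 probe sets between the genotypes, with or without the block.

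**Figure D4:**
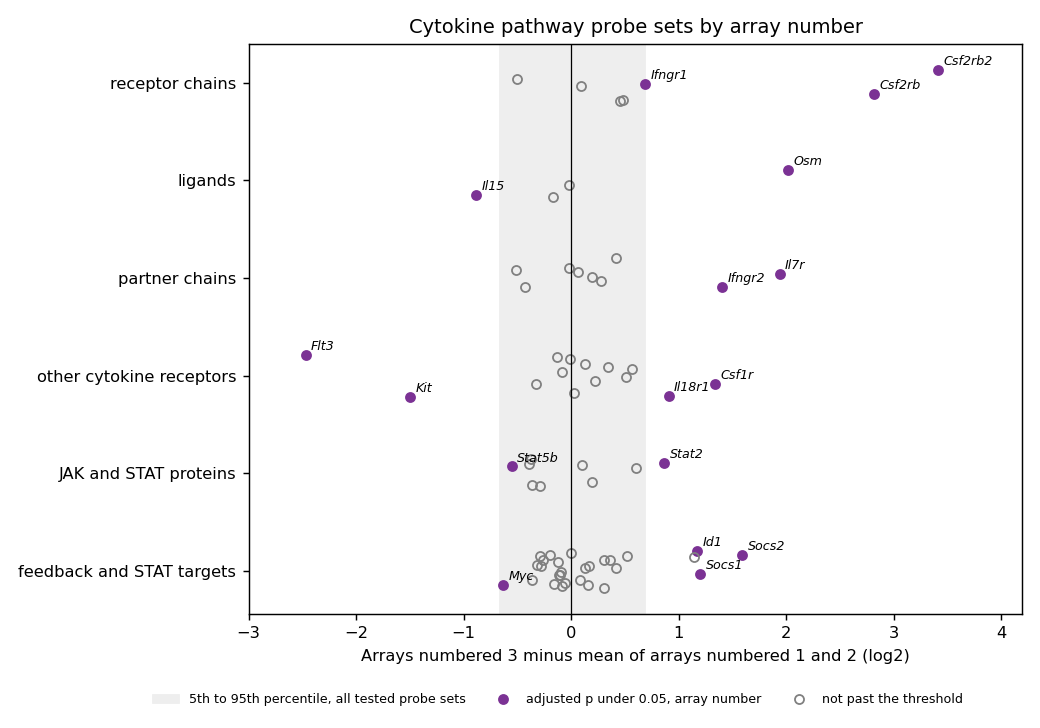
Array number 3 minus the mean of 1 and 2 (log2) for each tested probe set of the receptor chains and of 5 lists of their pathway. Filled points passed the array number term at an adjusted p of 0.05, open points did not, and the grey band is the 5th to 95th percentile over all tested probe sets, -0.66 to 0.69. Csf2rb2 and Csf2rb lie farthest to the right of all points drawn.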

How the data were processed

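Expression was measured on 6 mouse whole-transcript arrays, 3 of Selp-/- and 3 of WT HSC, from total RNA amplified and labelled with biotin, per the labels' protocols. The values are linear probe set intensities that the authors deposited, and MAS5 is named without a version, per the submitters' processing notes. They are multiples of 0.5 and show no common scaling, and any MAS5 scale factor stays unknown. Arrays give no read depth, and their number limits the precision. No column lacked a sample.

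The intensities were corrected with normexp (offset 50), quantile normalized and expressed as log2 (limma 3.58.1, R 4.3.3). Probe sets under the 40th percentile of the mean level (8.79) were left out, which left 17289. Genotype differences (Selp-/- minus WT) and, in a second model, the array number beside the genotype were tested by lmFit and eBayes with a variance trend, two-sided, at an adjusted p of 0.05. Scripts were tested on simulated data. Names came from the platform annotation, updated by gene identifier through RefSeq (21689 of the 21780 probe sets with 1 symbol matched, 1605 had several and 5430 none).

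The named genes are all receptor chains, then in each pathway list the probe sets past the threshold, up to 6. Further named are up to 3 of a marker list in list order, and the 3 nearest profiles of each chain with a range over 2. Of the T and NK cell list and the erythroid list all measured genes are named. Slamf1 of the HSC list is also named, chosen after its values were seen. The members and lists were chosen with earlier results of these data known. So was the measure of array number 3 against the mean of 1 and 2. Deviations from the genotype means correlated at 0.428, 0.526 and 0.814 between the same-numbered arrays 1, 2 and 3. Each value was above 0.1, and same-numbered arrays were treated as pairs in the alternative fit with the replicate block. The main genotype test had no block. Arrays of different number were not correlated for comparison. The shift shared by the arrays numbered 3 enters all 3 values, so they do not establish that the arrays numbered 1 or 2 are pairs. Alternatives were other background, normalization, filter and variance settings, the replicate block, and leaving out each array or number.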

Additional observations from a re-analysis of the deposited data

How the results depend on the processing

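The count of 3 receptor chains called for array number was 3 in every alternative setting that kept all 6 arrays except without normalization, where it was 5. With 1 array left out the called chains were not always the same. Without Selp-/- 3 Ifngr1 lost its call, while Csf3r, with a difference of -0.95, was called lower. Over all probe sets the array number term gave 5901 calls without normalization, and 1007 to 2239 with 1 array left out, the lowest without WT 3. Between genotypes 0 receptor chains were called in any alternative, and over all probe sets the count was 0 except without both arrays numbered 3, where it was 4. With array number as a replicate block 0 receptor chains and 0 probe sets in all were called (lowest adjusted p from limma 0.983 and 0.124), so the block changed no call.

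None of the genotype differences passed in any alternative, and the sign of several turned. Without both arrays numbered 3 the difference was 0.062 for Csf2rb2, 0.031 for Il6st and -0.14 for Csf3r, and without both numbered 1 it was -0.23 for Csf2rb and -0.016 for Ifngr1. It was -0.0059 for Csf2rb without background correction, 0.097 for Il6st and 0.017 for Csf2ra without normalization, and 0.011 for Il6st with median centring. With 1 array left out it ran from -0.87 to 1.01 for Csf2rb, -1.20 to 1.08 for Csf2rb2, -0.15 to 0.33 for Csf3r, -0.26 to 0.070 for Il3ra, -0.18 to 0.048 for Il6st and -0.18 to 0.28 for Ifngr1. For Csf2ra it ran from -0.31 without Selp-/- 3 to -0.0031 without WT 3, with no change of sign. Leaving out 1 array breaks a pair of array numbers, so these values mix genotype with array number. The difference of array number 3 from the mean of 1 and 2 ran from -0.0071 to 0.19 for Il6st, 2.61 to 3.03 for Csf2rb and 3.05 to 3.78 for Csf2rb2. Where no cause is given, the cause was not tested.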
